A study of Mus musculus with 10 samples.

Results

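*Pdk4*, *Angptl4*, *Fkbp5*, *Tsc22d3*, *Zbtb16*, *Sgk1*, *Cdkn1a*, *Nr3c1*, *Hsd11b1* and *Txnip* are 10 genes known to answer to fasting or to glucocorticoids, or to set how a cell senses these hormones. They were found by gene symbol among the non-control probes of 10 two-colour microarrays. Their 14 probes, printed in 32 spots per array, are part of 55681 probes with 34797 gene names. Of the 14 probes, 13 were expressed, which here means that 5 arrays or more had a mouse signal well above background. The array as a whole had 27811 expressed probes.

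The arrays measured RNA of epididymal white adipose tissue, the fat pad along the epididymis, from 10 adult male mice of 1 group. The mice were wildtype C57BL/6JOlaHsd by the treatment notes and C57BL/6J by the strain label, were 9 weeks old at the start, had 3 weeks of purified low fat diet and then 12 weeks of the BIOCLAIMS high-fat diet, and were housed at 29 °C. They were injected on 5 days with desferrioxamine (DFO), an iron chelator, at 100 mg/kg body weight per day, and were killed on day 6, at the start of the light phase, 2 h after food was taken away. The RNA of each mouse was labelled with Cy5, and a Cy3-labelled pool of equal amounts of RNA from all mice of the wider study, non-injected controls included, was put on every array. No array of a control, fasted or hormone-treated mouse was analysed here, dyes were not swapped, and RNA of each injected mouse is part of the pool, so no log2 ratio was tested against 0 and none measures an effect of DFO, food removal or glucocorticoids. Circulating hormone levels were not part of these data.

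In mice the main glucocorticoid is corticosterone. It enters cells and binds the glucocorticoid receptor, encoded by *Nr3c1*, which then moves to the nucleus and binds DNA elements built of paired copies of a short hexamer. *Hsd11b1* encodes the enzyme that regenerates active corticosterone inside adipocytes. Glucocorticoids rise in fasting, and together with falling insulin, FOXO factors and fatty acid-sensing PPAR receptors they turn adipose tissue from storing fat to releasing it. *Pdk4* and *Angptl4* are classical genes of that switch.

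The probes of the arrays are oligonucleotides of 60 bases. To show what each value rests on, the 5′ 30 bases of the probe that stands for each gene follow, in lower case and with no part marked. The positions are those of the array annotation on build mm9, and no annotation of exons or untranslated regions on that build was used here.
Pdk4, chr6:5433441-5433500, minus strand: tatgaacccatgggagactttaaactcttg
Angptl4, chr17:33911880-33911939, minus strand: atggtgctgttgtaggtgctgtggatgcac
Fkbp5, chr17:28536060-28536119, minus strand: gggaggccctgtctcaaaacaaaacaaaaa
Tsc22d3, chrX:137074094-137074153, minus strand: ctgctgtacgactccaggatttggatttgg
Zbtb16, chr9:48462419-48462478, minus strand: tatttcttccgttctacaggaccttgctct
Sgk1, chr10:21719507-21719566, plus strand: gtatcgtgtaaaggaagtctgtacattggg
Cdkn1a, chr17:29237377-29237436, plus strand: ctaagggagctcacaggacactgagcaatg
Hsd11b1, chr1:195048169-195048228, minus strand: aaggacatgtttgtaagtaactaggaactc
Txnip, chr3:96365147-96365206, plus strand: ctaaggtgatgttcttagcactttagcttg
Of the 30 bases shown for *Fkbp5*, 14 are A and they end in repeats of an A-rich motif. Whether RNA of other genes binds this probe was not tested.

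RefSeq promoter sequence (build GRCm38.p6) was at hand for 15 start sites of 7 of the genes, and the 250 bases before each start were searched on both strands. The full glucocorticoid response element, spelled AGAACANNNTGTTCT, was found before 1 of the 6 start sites of *Sgk1*. It occurs in 3 of the 32851 mouse promoters searched, which is 0.00913%. The *Sgk1* promoter is shown because it alone of the 15 holds the full element, which is in capitals and spans positions -189 to -175 from the start site.
Sgk1, chr10:21993640-21993889, plus strand: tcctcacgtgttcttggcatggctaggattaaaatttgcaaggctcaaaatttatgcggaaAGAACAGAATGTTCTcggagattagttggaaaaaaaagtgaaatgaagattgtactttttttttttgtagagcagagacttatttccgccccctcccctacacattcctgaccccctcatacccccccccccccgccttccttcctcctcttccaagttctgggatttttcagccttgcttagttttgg
The single hexamer AGAACA, which the full element also holds, was present in 16.1% of all promoters and in 4 of the 15, of which 3 belong to *Sgk1* and 1 to *Tsc22d3*. GTAAACA, the site of forkhead (FOXO) factors, was present in 3.17% of all promoters and before *Hsd11b1* and *Txnip*. CACGTG, the E-box, was present in 6.02% of all and before *Fkbp5* and 1 start site of *Sgk1*. The direct repeat bound by PPAR receptors, AGGTCANAGGTCA, was in 0.0335% of all and in none of the 15. Short windows around the matches outside *Sgk1* are shown with the motif in capitals, on the strand of the gene.
Tsc22d3, chrX:140600690-140600719, minus strand: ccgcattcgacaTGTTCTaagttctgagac
Fkbp5, chr17:28486301-28486330, minus strand: gcaagggccagaCACGTGggcagcggtgaa
Hsd11b1, chr1:193242480-193242510, minus strand: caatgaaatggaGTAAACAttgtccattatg
Txnip, chr3:96557824-96557854, plus strand: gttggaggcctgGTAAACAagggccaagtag
A match of letters does not show that a factor binds there, and elements outside these windows were not searched.

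The mice did not form 1 continuous group. On the first principal component of 27718 expressed probes with a value on every array, which held 75.1% of the variance, mice 4, 5, 6 and 7 lay apart from the other 6 with a gap of 0.513 of the whole range. Their log2 ratios were all below those of the other mice for 21.3% of these probes and all above them for 17.9%. The 10 arrays lay on 5 slides of 2 arrays each, in order of mouse number. Mice 4 to 7 were on slides 2, 3 and 4, with mouse 3 beside mouse 4 on slide 2 and mouse 8 beside mouse 7 on slide 4, while slides 1, 3 and 5 lay wholly on 1 side of the division. In a moderated F test of the slide with limma, 0 of 27718 probes passed after Benjamini-Hochberg adjustment, 1136 (4.1%) had an unadjusted p under 0.05, and none of the 13 expressed probes of these genes did. Since slides 2 and 4 hold mice of both sides, the division counts as noise in this test. It therefore had little power to find a slide effect. Nothing in the labels sets mice 4 to 7 apart, so their values are given mouse by mouse and were not averaged or tested as a group.

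Several cell type marker lists moved with this division, though not all. All 7 white adipocyte markers with a value on every array (of 8 listed) had their 4 lowest log2 ratios in mice 4 to 7. The mean of the list was between -2.61 and -1.46 in these mice and between -0.16 and 0.65 in the other 6. *Cfd*, which encodes the adipokine adipsin, went down to -4.69 in mouse 7, and *Adipoq*, the adiponectin gene, to -2.78. All 7 macrophage markers on the array were highest in mice 4 to 7, with list means of 0.62 to 0.84 against -0.81 to -0.01. Endothelial markers had 3 of 4 genes lowest in these mice, mesothelial markers 2 of 4 and the expressed lymphocyte markers 2 of 4. No neutrophil marker of the 4 listed had mice 4 to 7 all lowest or all highest. Over all probes, 21.3% were lowest and 17.9% highest in these mice. Of the fibroblast markers 2 of 4 were highest in mice 4 to 7, the collagen genes *Col1a1* and *Col3a1*, and the mean of that list was 0.09 to 0.33 in these mice against -0.53 to -0.02. *Pdgfra* and *Dcn* were neither all highest nor all lowest there. *Dcn* tended the other way, with -0.63 to -0.26 in mice 4 to 7 against -0.51 to 0.185 in the others. Of 3 brown adipocyte markers, *Ucp1* and *Elovl3* were well above background on 1 and 0 arrays, while *Cidea* was so on all 10 and was lowest in mice 4 to 7, down to -1.85. Of the epididymis and sperm list, *Lcn5* and *Crisp1* were above background on no array, and the sperm genes *Prm1*, *Prm2* and *Tnp1* on 8, 10 and 9 arrays. All adipocyte and macrophage markers on the array were well above background in every mouse. In bulk tissue, fewer cells of a type and less RNA of a gene per cell cannot be told apart. How much of the values below comes from cell content was not tested. Only relations of the genes with the adipocyte and macrophage list means were, over the other 6 mice.

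Across the 10 genes, 7 had their 4 lowest log2 ratios in mice 4 to 7 (*Pdk4*, *Angptl4*, *Fkbp5*, *Tsc22d3*, *Zbtb16*, *Hsd11b1* and *Txnip*), *Sgk1* had its 4 highest there, and *Cdkn1a* and *Nr3c1* did neither. The shares of all probes with these patterns are the 21.3% and 17.9% given above. The distance to the nearest of the other mice ranged widely, from 0.02 on the log2 scale for *Txnip* to 1.25 for *Zbtb16*, so for *Txnip* and *Pdk4* the mice were barely parted. With each array centred on its median in place of loess, the median log2 ratio of expressed probes moved from 0.01 to 0.32, and only *Zbtb16*, *Hsd11b1* and *Sgk1* of the 10 genes still parted these mice, where 6.75% of all probes had the 4 mice lowest and 16.5% highest. The values that the authors normalized have the size of log2 signals (10.4 to 11.8 for *Pdk4*) and not of ratios to the pool, so the measure differs. In them, *Fkbp5* and *Tsc22d3* parted these mice too, which made 5, with shares of 14.6% and 22.7% over all probes. The mean log2 ratio was below 0 for 9 of the 10 genes, all but *Cdkn1a*, and for 0 with that centring, so whether a gene lay below or above the pool depends on the scaling.

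**Figure D1:**
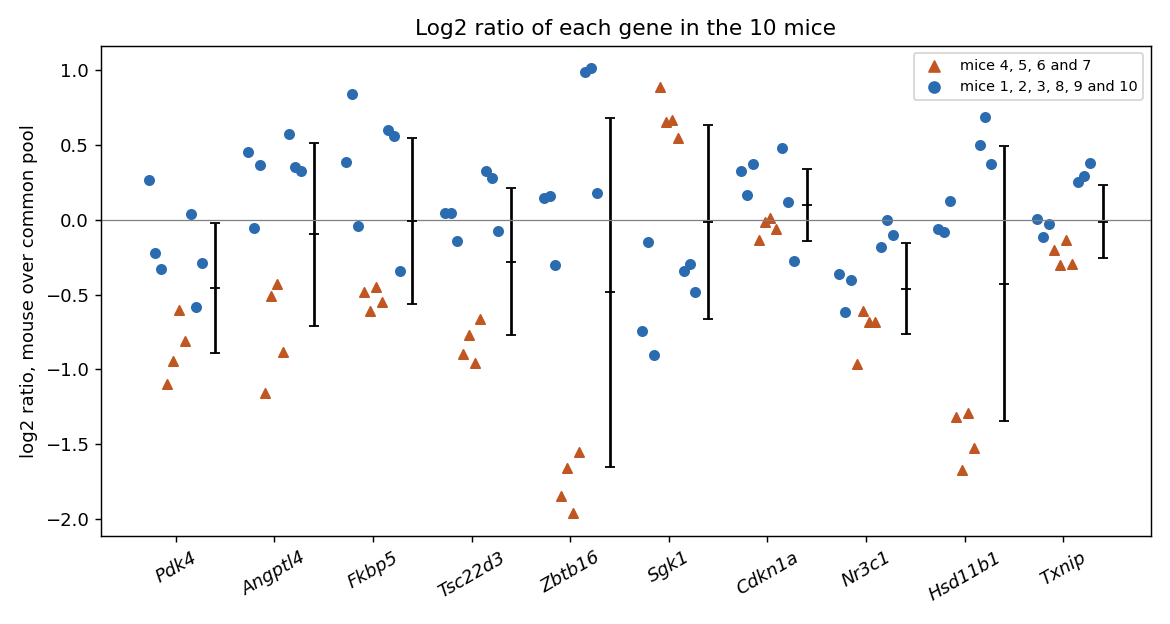
Log2 ratio of each mouse over the common pool for the probe that stands for each of the 10 genes. Points are single mice in order from mouse 1 to 10, triangles mark mice 4 to 7, and the bar at the right of each gene is the mean ± SD over 10 mice. Zbtb16 and Hsd11b1 have triangles far below the circles, and Sgk1 has them above.

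*Nr3c1*, the gene of the receptor, has 2 expressed probes. At the brighter one the log2 ratio was lowest in mouse 4 (-0.97), had a median of -0.51 and was highest in mouse 9 (0.00), with a mean of -0.46 ± 0.30 (SD, n = 10). The highest of mice 4 to 7 was mouse 5 with -0.61, level with mouse 2, so that the mice overlapped. At the other probe, on the same chromosome mouse 5 had -0.39 and mouse 2 had -0.37, and mice 4 to 7 were the 4 lowest by a distance of 0.02. The brighter probe lay 0.19 ± 0.15 (SD, n = 10) below the other on the log2 scale, and the difference between them ran from -0.32 to 0.11. The receptor thus varied 1.96-fold between the lowest and the highest mouse at 1 probe and 1.99-fold at the other.

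*Hsd11b1*, whose enzyme makes the ligand within the cell, varied more than the receptor. Its probe is printed in 10 spots per array. The log2 ratios were -0.06, -0.08 and 0.12 in mice 1 to 3, -1.32, -1.67, -1.29 and -1.53 in mice 4 to 7, and 0.50, 0.69 and 0.37 in mice 8 to 10. Mice 4 to 7 lay at least 1.21 below every other mouse, and the highest value was 5.11-fold the lowest. The median SD over the 10 spots of 1 array was 0.07 and the SD between mice was 0.92. *H6pd*, which supplies the cofactor of this enzyme in the endoplasmic reticulum, was likewise lowest in mice 4 to 7, down to -1.25, against -0.45 to 0.43 in the others. *Hsd11b2*, the enzyme of the opposite direction, was well above background on 0 arrays, and *Nr3c2*, the mineralocorticoid receptor, on 2.

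Of the 10 genes of the receptor machinery list, 8 were expressed. Among these, 2 had their lowest values in mice 4 to 7, *H6pd* and the coactivator *Ncoa1*, and none had its highest. Over all probes, 21.3% were lowest and 17.9% highest in these mice. The chaperone *Hsp90ab1* had an SD between mice of 0.11, and for the co-chaperones *Stip1* and *Ptges3* it was 0.14 and 0.10.

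*Zbtb16* had the widest range among the 10 genes. It encodes PLZF, a zinc finger repressor and a widely used marker of glucocorticoid exposure. The log2 ratios were 0.14, 0.16 and -0.30 in mice 1 to 3, -1.84, -1.66, -1.96 and -1.55 in mice 4 to 7, and 0.99, 1.01 and 0.18 in mice 8 to 10. The highest mouse was 7.85-fold the lowest. Mice 8 and 9 stood well above mouse 10 and mice 1 to 3.

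*Tsc22d3* encodes GILZ, a leucine zipper protein through which glucocorticoids restrain inflammation. Its lowest value was -0.96 in mouse 6, its median -0.11 and its highest 0.32 in mouse 8, and mice 4 to 7 (-0.96 to -0.66) were 0.52 below the nearest of the other mice. The range was 2.43-fold, narrower than that of *Zbtb16*.

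*Fkbp5* encodes FKBP51, a co-chaperone that lowers the receptor's affinity for the hormone and is itself induced by it. Its log2 ratio was lowest in mouse 5 (-0.61), had a median of -0.19 and was highest in mouse 2 (0.84). Mouse 10, at -0.34, lay only 0.11 above the highest of mice 4 to 7. The 10 mice covered a 2.74-fold range.

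*Sgk1* encodes a kinase of ion transport and cell survival that glucocorticoids, serum and cell stress induce, and its promoter with the full element is shown above. Its pattern was turned over with respect to the other 3 hormone-induced genes. The log2 ratios were -0.74, -0.15 and -0.90 in mice 1 to 3, 0.89, 0.65, 0.67 and 0.54 in mice 4 to 7, and -0.35, -0.30 and -0.48 in mice 8 to 10. Mice 4 to 7 were the 4 highest, 0.69 above mouse 2. The highest value was 3.46-fold the lowest. The means of the macrophage and the fibroblast marker lists were also highest in these 4 mice. On the fibroblast list this held for only 2 of 4 genes.

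**Figure D2:**
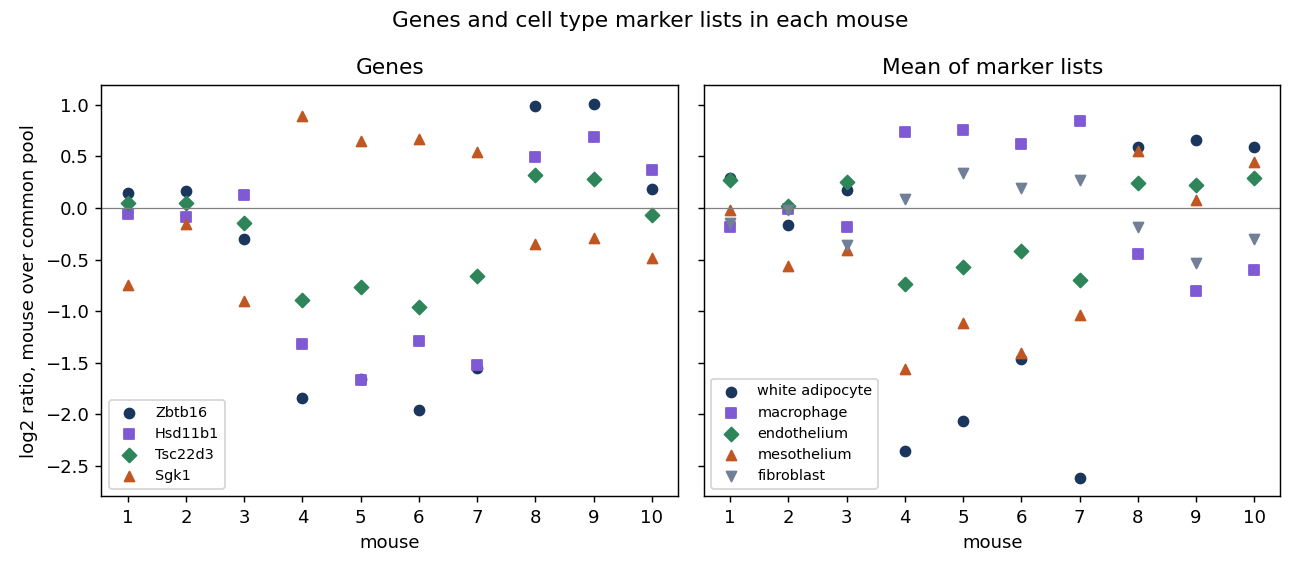
Log2 ratio in each mouse of 4 of the genes (left) and mean log2 ratio of 5 cell type marker lists (right), on 1 vertical scale. Zbtb16, Hsd11b1 and Tsc22d3 and the adipocyte, endothelial and mesothelial lists are low in mice 4 to 7, while Sgk1 and the macrophage list are high there.

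The other glucocorticoid targets on the list went both ways. Of 17 genes, 16 were expressed with a value on every array. Mice 4 to 7 were the 4 lowest for 8 of them (21.3% of all probes) and the 4 highest for 2 (17.9%). *Klf15*, a transcription factor of fasting metabolism, ranged from -1.55 in mouse 7 to 1.04 in mouse 9. The lipid phosphatase gene *Lpin1* ranged from -1.34 to 0.72 and *Ddit4*, an inhibitor of mTOR signalling, from -1.18 to 0.50, and for both the lowest mouse was mouse 7. *Rgs2*, a regulator of G protein signalling, had the opposite order, from -1.21 in mouse 9 to 0.82 in mouse 7. Among these 16 the list mean was between -0.29 and -0.20 in mice 4 to 7 and between -0.02 and 0.22 in the others.

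*Pdk4* encodes a kinase that shuts the pyruvate dehydrogenase complex and so spares glucose in fasting. Its log2 ratio was lowest in mouse 4 (-1.10), had a median of -0.45 and was highest in mouse 1 (0.27). Mouse 6 had -0.61 and mouse 9 had -0.58, so mice 4 to 7 and the others nearly met. The mean was -0.46 ± 0.43 (SD, n = 10) and the range 2.57-fold. Of the 6 other genes of pyruvate dehydrogenase control, all expressed, 3 were lowest and 2 highest in mice 4 to 7. The shares over all probes were 21.3% and 17.9%. *Pdk2*, the widely expressed kinase of the family, lay between -0.51 and -0.23 in these mice and between 0.31 and 0.43 in the others, while *Pdk1* lay between 0.27 and 0.48 and between -0.29 and 0.13.

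*Angptl4* encodes a secreted inhibitor of lipoprotein lipase that is induced by fasting, fatty acids and low oxygen. Its log2 ratio was lowest in mouse 4 (-1.15), had a median of 0.13 and was highest in mouse 8 (0.57). Mice 5 and 6, with -0.51 and -0.43, were closer to mouse 2 (-0.06) than to mouse 4, and the range was 3.31-fold. Of the 4 other genes of the lipoprotein lipase system with a probe, 3 were lowest in mice 4 to 7 (21.3% of all probes). *Gpihbp1*, which holds the lipase on the capillary wall, ranged from -1.53 in mouse 7 to 0.69 in mouse 10. *Lpl* itself spanned -0.20 to 0.42.

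*Txnip* encodes an arrestin-like protein that binds thioredoxin and slows glucose uptake, and it rises with glucose through the factor that *Mlxipl* encodes. Its 2 expressed probes gave similar, small spreads. At the brighter one the log2 ratio ran from -0.30 in mouse 5 over a median of -0.07 to 0.37 in mouse 10, a 1.60-fold range. At the other the lowest was -0.23 in mouse 4 and the highest 0.32 in mouse 10. The difference between the probes had an SD of 0.11 over mice and was widest in mouse 2, where the brighter probe gave -0.11 and the other 0.13. Mice 4 to 7 were the 4 lowest at both probes.

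Of 9 relatives and regulators of *Txnip*, all expressed, 3 were lowest and 3 highest in mice 4 to 7. *Mlxipl* ranged from -1.61 in mouse 7 to 0.61 in mouse 8, and *Txn1*, the cytosolic thioredoxin, from -0.41 in mouse 10 to 1.03 in mouse 4. Among the other fasting, FOXO and PPAR targets, 17 of 17 were expressed, of which 5 were lowest and 5 highest in mice 4 to 7. Beside both lists, 21.3% of all probes were lowest and 17.9% highest there. *Pck1*, the gene of the key enzyme of glyceroneogenesis, had the widest range of that list, from -3.57 in mouse 5 to 1.22 in mouse 9. *Plin2*, a coat protein of lipid droplets, had the opposite order, from -1.06 in mouse 9 to 1.02 in mouse 7. *Acot1*, an acyl-CoA thioesterase gene, was highest in mouse 2 with 1.75, and its next value was -0.03.

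*Cdkn1a* encodes p21, an inhibitor of the cell cycle that p53, glucocorticoids and cell stress induce. Its probe with 10 spots gave log2 ratios from -0.28 in mouse 10 over a median of 0.06 to 0.47 in mouse 8, with a mean of 0.10 ± 0.24 (SD, n = 10). Mice 4 to 7 lay between -0.14 and 0.01, within the range of the others, and the median SD over spots of 1 array was 0.06. A second probe, annotated to another transcript (NM_001111099), was dim, with Cy5 well above background on 8 arrays and Cy3 on 0, and its log2 ratios of 0.24 to 0.49 in mice 4 to 7 were above the -0.18 to 0.20 of the others. The third probe was well above background on only 3 arrays in Cy5 and was left out. Of 8 other p53 targets, all expressed, 4 were lowest (21.3% of all probes) and 3 highest (17.9%) in mice 4 to 7. *Plk2*, a stress-induced kinase gene, ranged from -0.92 in mouse 9 to 1.42 in mouse 4, and *Sesn2*, a sestrin, from -0.95 in mouse 7 to 0.74 in mouse 9.

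**Figure D3:**
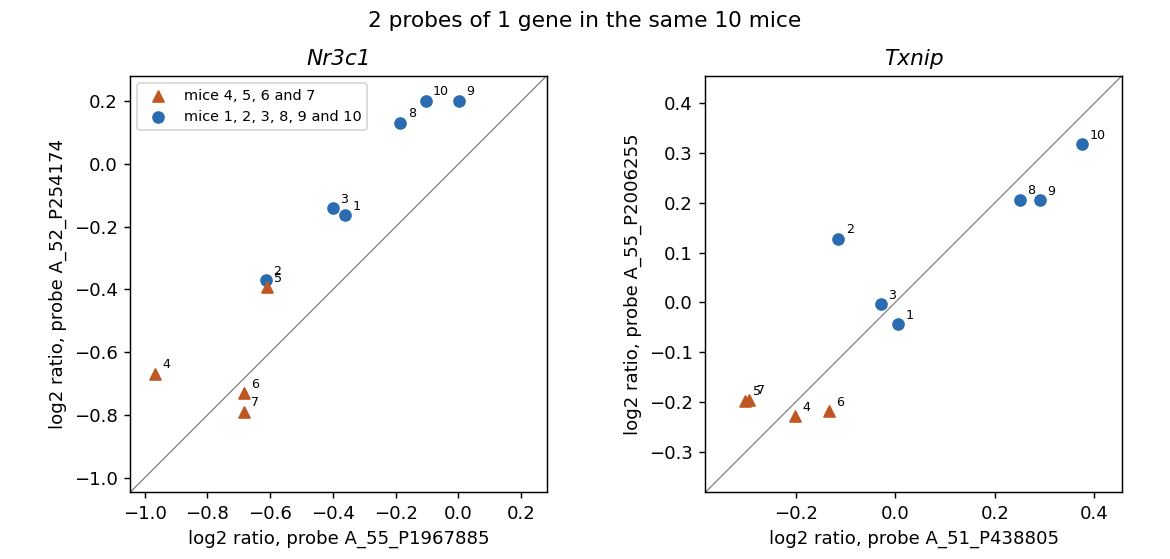
Log2 ratios at 2 probes of Nr3c1 (left) and of Txnip (right) in the same 10 mice, numbered, with the line of equal values. Most mice lie above the line for Nr3c1, where the probe on the vertical axis is on average 0.19 higher, and mouse 2 is farthest from it for Txnip.

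Because every array carried the same pool, the spread of Cy3 over the 10 arrays shows how far 1 RNA varies between hybridisations. The spread of Cy5 adds the mice, and with them the quality and the labelling of each RNA and the other dye. These parts cannot be told apart here. Over all 25049 probes tested, log2 Cy5 varied more than log2 Cy3 for 59.7% (Pitman-Morgan test, two-sided, Benjamini-Hochberg adjusted p under 0.05) and less for 0.16%. All 12 probes of the 10 genes that were bright enough in both dyes were among the former. The ratio of the SDs was 34.2 for *Hsd11b1* (0.91 in Cy5 and 0.03 in Cy3, adjusted p = 1.43e-08) and 20.1 for *Zbtb16* (1.19 and 0.06, adjusted p = 1.09e-07), both higher than in at least 99.5% of the probes tested. It was 10.6 for *Tsc22d3*, 9.38 for *Sgk1*, 8.84 for *Pdk4* and 7.54 for *Fkbp5*. The *Hsd11b1* and *Cdkn1a* values are means of 10 spots per array, those of the other probes of these genes come from 1 spot. Averaging lowers spot noise, so the ratio of *Hsd11b1* is not on equal terms with those of probes with 1 spot. The ratio was lowest for the dimmer *Txnip* probe (2.38, adjusted p = 0.0275 in the same Pitman-Morgan fit), near the median of 2.48 over all probes, and the median over the 12 probes was 6.67. With median centring in place of loess, 7 of the 12 probes passed, where 40.6% of all probes did, and neither *Cdkn1a* nor any probe of *Nr3c1* or *Txnip* was among them. Without normalization between arrays 4 passed (18.7% of all probes), those of *Fkbp5*, *Zbtb16*, *Sgk1* and *Hsd11b1*.

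**Figure D4:**
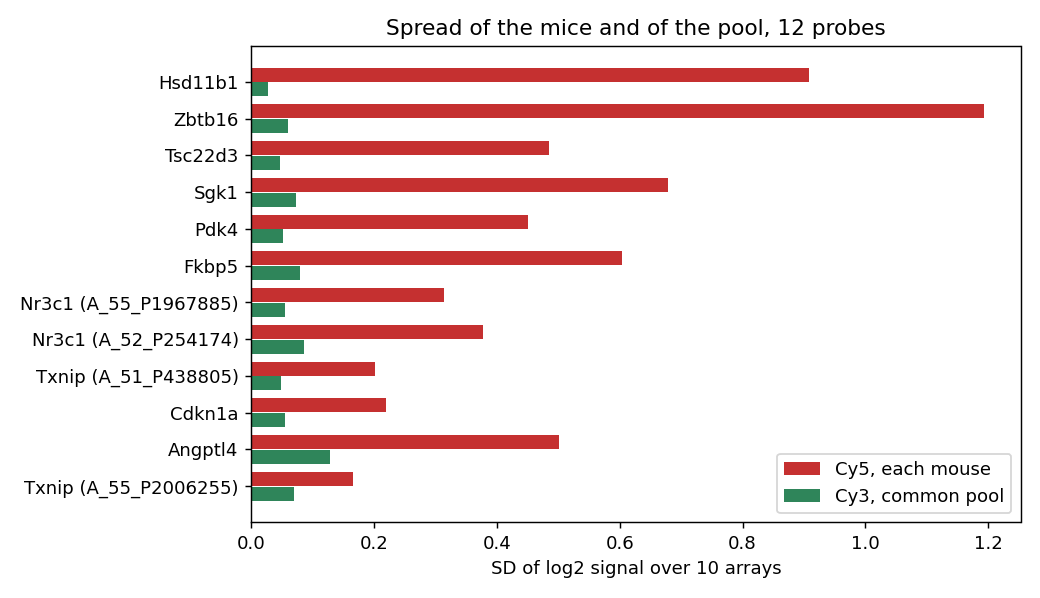
SD of log2 signal over the 10 arrays in Cy5 (1 mouse per array, red) and in Cy3 (the same pool on each array, green) for the 12 probes tested, ordered by the ratio of both. Cy5 is the longer bar for each probe, most of all for Hsd11b1 and Zbtb16. Hsd11b1 and Cdkn1a values are means of 10 spots per array, the others come from 1 spot.

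Whether the genes varied together was asked next. Since 8 of the 10 genes part the mice, a correlation over all 10 would mostly repeat that division. So 44 of the 45 pairs were taken over mice 1, 2, 3, 8, 9 and 10 alone. These 6 were not uniform either. For *Nr3c1*, *Hsd11b1*, *Txnip* and, by little, *Zbtb16*, mice 8 to 10 all lay above mice 1 to 3. The former were on slides 4 and 5, the latter on slides 1 and 2. Relations among these genes partly repeat this second division. Only the pair of *Cdkn1a* and *Nr3c1* was taken over 10 mice (Pearson r = 0.306, Spearman rho = 0.333, permutation p = 0.388 and 0.35, adjusted over 45 pairs 0.728 and 0.842, r = 0.627 without the 2 mice farthest from the median of *Cdkn1a*). Over the 6 mice used for the other pairs its r was -0.33. With 6 mice, the smallest p that the exact permutation test can give is 0.00278. Of the 44 pairs, r was above 0 in 31 and below 0 in 13, and in 22 of them the sign turned when the 2 mice farthest from the median of the first gene were left out. With 2 of 6 mice left out, so few remain that an r near 1 or -1 carries little weight. A single pair at the smallest p of 0.00278 could not pass after adjustment over the 45. The adjusted result therefore cannot show that the genes do not vary together. No pair passed, and 3 had an unadjusted exact p under 0.05.

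These 3 were *Tsc22d3* with *Zbtb16*, *Nr3c1* with *Hsd11b1*, and *Nr3c1* with *Txnip*. Both GILZ and PLZF transcripts were highest in mice 8 and 9 and lowest in mouse 3, with r = 0.964 (exact permutation p = 0.0167, adjusted 0.312) and rho = 0.714 (exact p = 0.136, adjusted 0.766), and r = 0.763 without the 2 farthest mice. For the receptor and the enzyme r was 0.909 (exact permutation p = 0.0208, adjusted 0.312) and rho 0.886 (exact p = 0.0333, adjusted 0.661), with r = 0.814 without the 2 farthest mice. For *Nr3c1* and *Txnip* r was 0.937 (exact permutation p = 0.0125, adjusted 0.312) and rho 0.943 (exact p = 0.0167, adjusted 0.661), with r = 0.999 without the 2 farthest mice.

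The remaining pairs among the hormone-induced genes had exact permutation p above 0.05 before adjustment. *Fkbp5* with *Tsc22d3* had r = 0.669 and *Fkbp5* with *Zbtb16* r = 0.492 (exact permutation p = 0.139 and 0.318, adjusted 0.728 for both), and without the 2 mice farthest from the median of *Fkbp5*, mice 3 and 10, r was -0.0999 and -0.0971. *Tsc22d3* with *Sgk1*, which part the 10 mice in opposite directions, had r = 0.603 among the 6 (exact permutation p = 0.208, adjusted 0.728) and 0.567 without the 2 farthest mice. *Fkbp5* with *Sgk1* had r = 0.619 and *Zbtb16* with *Sgk1* r = 0.635 (exact permutation p = 0.183 and 0.168, adjusted 0.728 for both), and these were 0.905 and 0.693 without the 2 farthest mice. *Pdk4* with *Angptl4* had r = 0.347 (exact permutation p = 0.531, adjusted 0.754). With all other members *Pdk4* had an r between -0.517 and 0.442, and between 0.258 and 0.993 without the 2 farthest mice, mostly with another sign (5 of 9 pairs).

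A fit across all probes was made as well, with each gene in turn as the regressor of 27717 expressed probes over the 6 mice in limma. Of the 90 rows that belong to another of the 10 genes, 1 passed after adjustment over all probes, that of *Hsd11b1* on *Nr3c1*, with a slope of 1.27 log2 units per log2 unit (adjusted p = 0.0392). The reverse fit, of *Nr3c1* on *Hsd11b1*, had an adjusted p of 0.221. With *Nr3c1* as regressor 3.46% of all probes passed, with *Txnip* 0.646% and with *Hsd11b1* 0.00361%, and with each of the other 7 genes 0, where 423 to 2880 probes had an unadjusted p under 0.05. The shares changed when single mice were left out. That of *Nr3c1* was 0.382% without mouse 9, 0.707% without mouse 10 and 1.54% without mouse 2, that of *Txnip* was 0.0216% to 0.137% without mouse 2, 3, 8, 9 or 10, and that of *Angptl4* was 1.21% without mouse 8 and 0.361% without mouse 10. *Sgk1* reached 0.314% without mouse 2. With the slide as a block no probe passed with *Nr3c1* as regressor, and 2.46% did with *Angptl4* and 2.43% with *Sgk1*. In that fit mice 3 and 8 were each alone on their slide, so the slopes rested only on differences within slides 1 and 5. Its counts therefore cannot show how the slide bears on these relations. Without mouse 8, 9 or 10, without background subtraction, with the slide as a block, and with the scanner's or the authors' values, no row between members passed. Without mouse 2 the row of *Hsd11b1* did not pass either, and that of *Zbtb16* on *Sgk1* did (limma adjusted p = 0.0469). With median centring 49 of the 90 did, and 29.8% of all rows over the 10 regressors, from 25.5% to 55.5% for the 7 regressors with any call.

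**Figure D5:**
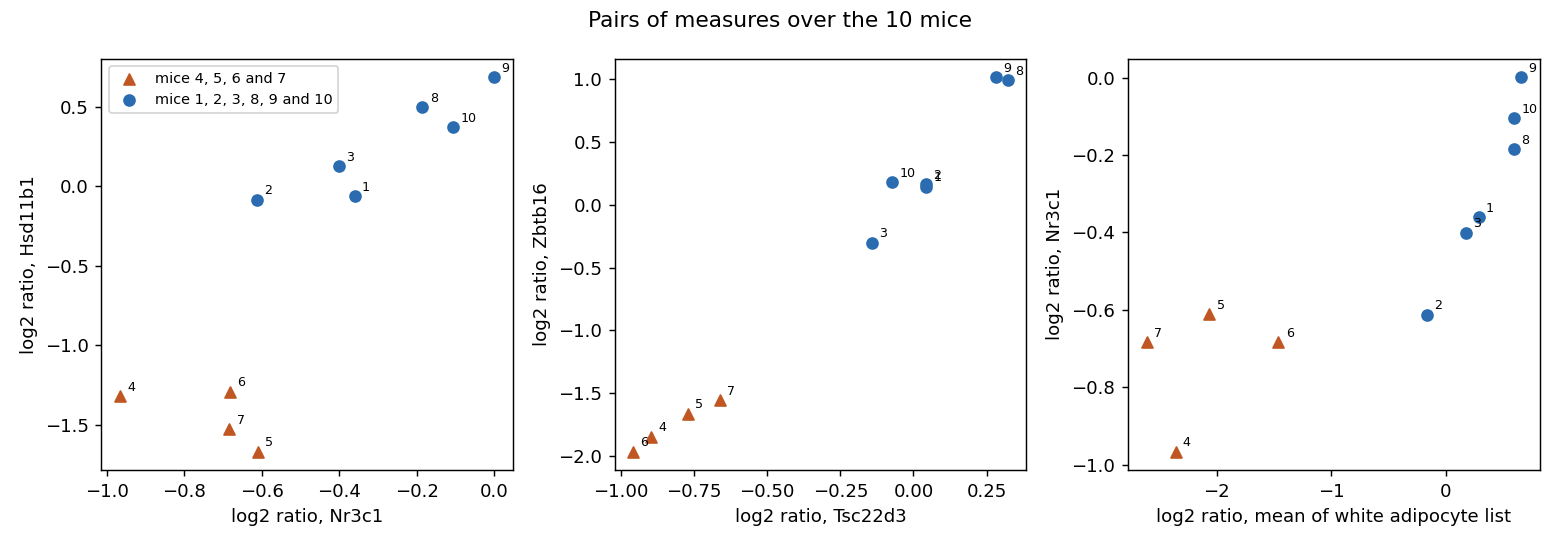
Log2 ratios of Nr3c1 and Hsd11b1 (left), of Tsc22d3 and Zbtb16 (middle), and of the mean of the white adipocyte list and Nr3c1 (right) in the 10 mice, numbered. Triangles are mice 4 to 7, which form a cluster of their own on Hsd11b1, Zbtb16 and the adipocyte list, and correlations in the text are over the circles only.

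The marker lists moved with some of the same genes among the 6 mice. *Nr3c1* had r = 0.975 with the mean of the adipocyte list and -0.977 with that of the macrophage list (exact permutation p = 0.00278 and 0.00556, both 0.0556 after adjustment over 20 relations, rho = 0.943 and -0.943, and r = 0.968 and -0.991 without the 2 farthest mice). *Hsd11b1* had r = 0.872 and -0.938, and *Txnip* 0.936 and -0.922, with adjusted exact p between 0.0778 and 0.106. *Zbtb16* had 0.646 and -0.675, *Tsc22d3* 0.48 and -0.477, and *Fkbp5* -0.323 and 0.236 (adjusted exact permutation p of 0.354 or more for each). None of the 20 relations passed after adjustment, and 6 had an unadjusted exact p under 0.05, those of *Nr3c1*, *Hsd11b1* and *Txnip* with both lists. The p of *Nr3c1* with the adipocyte list, 0.00278, is the smallest that 6 mice can give, and it was 0.0556 after adjustment. A single relation could thus not pass whatever its r, so the adjusted result cannot show that a gene and a list are unrelated. On the adipocyte list mice 8 to 10 lay above mice 1 to 3 (0.59 to 0.65 against -0.16 to 0.29). On the macrophage list they lay below them (-0.81 to -0.45 against -0.18 to -0.01). These 6 relations thus partly repeat that division within the 6 mice.

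Over the same 6 mice, the genes whose pattern was most like that of each member had an r close to 1, as the best of 13090 gene symbols do with so few mice, and no test was made. The nearest to *Zbtb16* was *Timm17a* (r = 0.995), to *Tsc22d3* *Mrpl22* (0.986), to *Sgk1* *Polr3e* (0.992) and to *Fkbp5* *Dhx38* (0.987). For *Pdk4* it was *Vcan* (0.999), for *Angptl4* *Gnal* (0.983), for *Hsd11b1* *Fam149b* (0.995) and for *Txnip* *Acss3* (0.994). Over 10 mice, *Dnaja3* and *Ndufs7* were nearest to *Nr3c1* (both 0.983), and *Slc38a11* to *Cdkn1a* (0.904).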

How the data were processed

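Per the labels, 10 mice of 1 group were measured on two-colour arrays, 1 per mouse. The authors deposited scanner files (Agilent Feature Extraction 10.7.3.1) whose intensity values, mean spot and median background brightness per dye, are not normalized. The log10 ratio in these deposited files was computed by the software after its own correction. A deposited table of log2 values normalized by the authors, in a way not given in the sources used here, served as an alternative.

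Intensities were corrected with normexp (offset 50) and normalized by loess within arrays and, for single channels, Aquantile between arrays (limma 3.58.1, R 4.3.3). Control and outlier spots (247 to 344 per array) were left out and spots of a probe averaged. A gene was represented by its expressed probe with the highest mean Cy5 signal. Median Cy5 was 54.8 to 81.3 over arrays against a background of 32 to 37, without saturated spots. Precision is limited by the number of arrays. The Pitman-Morgan test and limma's F test and regression were tested on simulated data, and correlations used 100000 permutations, or all orders of 6 mice (Python 3.11.15). The simulated data for the F test held no division of the mice. Mice counted as parted by a gene where a gap that left 3 or more on either side reached 0.4 of the range, or where the gene parted them as the first component did. Named were the 10 genes, up to 4 expressed genes with the largest SD per list and the genes with the highest r, while some other list genes were chosen after their values were seen. The genes, lists and rules were chosen with earlier results of these data known. Alternatives were other background correction, centring, scanner and deposited values, filters, probe means, the slide as a block and leaving out each mouse.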

Additional observations from a re-analysis of the deposited data

Results flagged for a closer look

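None of the 13 expressed probes of the 10 genes had a mouse far from all the others by Dixon's test, in which chance picks about 1 in 20 groups. Among the list genes named, *Acot1* was highest in mouse 2, and the gap to the next mouse was 0.519 of the range over 10 mice. For the mean of the neutrophil list, mouse 8 (0.86) was separated from the next, mouse 1 (-0.03), by 0.562 of the range. Of its 4 genes, *S100a9* (2.255) and *Retnlg* (0.85, above background on 7 arrays) were highest in mouse 8. *S100a8* was highest in mouse 2 (0.90, against 0.08 in mouse 8) and *Ly6g* in mouse 1 (0.41, against 0.27). For the mean of the sperm and epididymis list, mouse 2 (-1.02) was separated from the next, mouse 3 (-2.10), by 0.609 of the range. Only the sperm genes *Prm1*, *Prm2* and *Tnp1* entered this mean. They were dim, with lowest Cy5 signals of 57.4, 66.9 and 58.8, and lay below the pool in every mouse.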

How the results depend on the processing

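The number of probes of these genes with a larger spread in Cy5 was 12 and stayed between 10 and 12 without background subtraction, with an F test, with the slide as a block and with other filters, and between 11 and 12 when each mouse was left out. It fell to 7 with median centring and to 4 without normalization between arrays. The regressions between members past the threshold were 1, and 0 without background subtraction, with the scanner log ratio, with the deposited values and with the slide as a block, 49 with median centring (where 29.8% of all rows passed), and 0 to 1 when a mouse was left out. The genes that part mice 4 to 7 were 8, and 3 with median centring and 5 with the deposited values, which was counted after seeing the data. The mean log2 ratio was below 0 for 9 of the 10 genes, for 0 with median centring, and for 6 to 9 when a mouse was left out, so the sign against the pool depends on the scaling. The r of *Fkbp5* with *Tsc22d3* and with *Zbtb16* turned to -0.0999 and -0.0971 without the 2 farthest mice. The slide test called 0 probes of these genes in each alternative run, and 6 had an unadjusted p under 0.05 with median centring, as did 9.81% of all probes. The causes of these shifts were not tested. No paired comparison of conditions was possible because there is 1 group. The Pitman-Morgan test pairs only the 2 dyes of each array. The number of arrays, and of mice in most pairs (6), limits the precision.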
